A study of Mus musculus with 6 samples.

Results

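The genes described here are 10 markers of homeostatic astrocytes, the supporting glia of the brain: *Aqp4*, *Aldh1l1*, *Aldoc*, *Gja1*, *Gjb6*, *Fgfr3*, *Sox9*, *Acsbg1*, *Mlc1* and *Hepacam*. They were chosen by name as genes expressed by astrocytes of the uninjured brain, by a rule that used no measured value, though earlier results of these data were known when they were chosen. The count tables listed 46078 genes, these 10 included, and all 10 were among the 15554 genes with enough reads to be tested. Bulk mRNA was sequenced from 3 infarcts and from 3 matching regions of the contralateral cortex of wild type C57BL/6J mice. The mice were 3 months old, and both kinds of tissue were collected 7 weeks after an ischemic stroke made by occluding the distal middle cerebral artery under hypoxia. The contralateral cortices therefore came from brains with a stroke in the other hemisphere, and no uninjured mouse is part of the comparison. Infarcts were recognized by eye and cut out with a razor blade, so each library holds whatever cells that piece of tissue held. The labels name no treatment, and they tie no infarct to a contralateral cortex of its own mouse, nor do they say that each library is a different mouse. The main test below takes the 6 libraries as independent. Its *p* values set the difference between regions against the spread of libraries within a region, and may not measure the spread between mice.

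Homeostatic astrocytes line blood vessels with endfeet, take up potassium, glutamate and water, and share small molecules with each other through gap junctions. Aquaporin-4 and the MLC1 and HEPACAM membrane proteins sit at these endfeet and at cell contacts, connexins build the gap junctions, and the remaining markers are metabolic enzymes, a growth factor receptor and a transcription factor that keeps astrocyte identity. After injury, astrocytes near a lesion become reactive, raise intermediate filament genes such as *Gfap*, and build a scar around the dead tissue.

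The infarct libraries held between 12146959 and 13427057 reads on genes, and the contralateral libraries between 11943570 and 19933962. Levels are given as CPM (a gene's counts per 1000000 counts of the library) after scaling each library by the trimmed mean of *M* values (TMM). The median log2 fold change of all tested genes was 0.03 with this scaling and 0.23 when only library totals were used, so that the second scaling adds 0.2 to a log2 fold change. Infarct 3 stood apart from the other infarcts in its neuronal content, though not in that alone. Its T, B and plasma cell markers summed to 345 CPM, against 2390 and 956 CPM in infarcts 1 and 2. The summed level of 8 pan-neuronal markers was 632 CPM in infarct 1, 885 CPM in infarct 2 and 1608 CPM in infarct 3, against 8767 to 9523 CPM in contralateral cortices. The summed level of 8 cortical excitatory neuron markers was 124, 197 and 428 CPM in infarcts 1, 2 and 3, and 1301 to 1680 CPM in contralateral cortices. These values give the cortical label of the contralateral tissue its markers, and the values of the 10 markers are given below with and without infarct 3.

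The astrocyte markers did not move together. By the quasi-likelihood test of edgeR, adjusted by Benjamini and Hochberg's method, 9 of the 10 genes differed between infarcts and contralateral cortices at an adjusted *p* of 0.05, where 65.0% of all tested genes did. Of these, 5 rose in infarcts, where 34.2% of all tested genes rose, and 4 fell, where 30.8% of all tested genes fell. *Aqp4* and *Gjb6* were upregulated over 2-fold (2 of 10, beside 25.7% of all tested genes), and *Fgfr3* was downregulated over 2-fold (1 of 10, beside 20.9%). The 3 genes past 2-fold are 30% of the markers, below the 46.6% of all tested genes that passed it. The infarct and contralateral libraries did not overlap for 8 of the 10 genes, where 72.3% of all tested genes did not overlap. Infarcts lay wholly above in 5 of the 10 (37.6% of all tested genes) and wholly below in 3 (34.7%). The median log2 fold change of the 10 markers was 0.25, and it was 0.09 without infarct 3 and 0.46 with library totals. In bulk tissue, fewer cells of a type and less RNA per cell cannot be told apart.

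**Figure D1:**
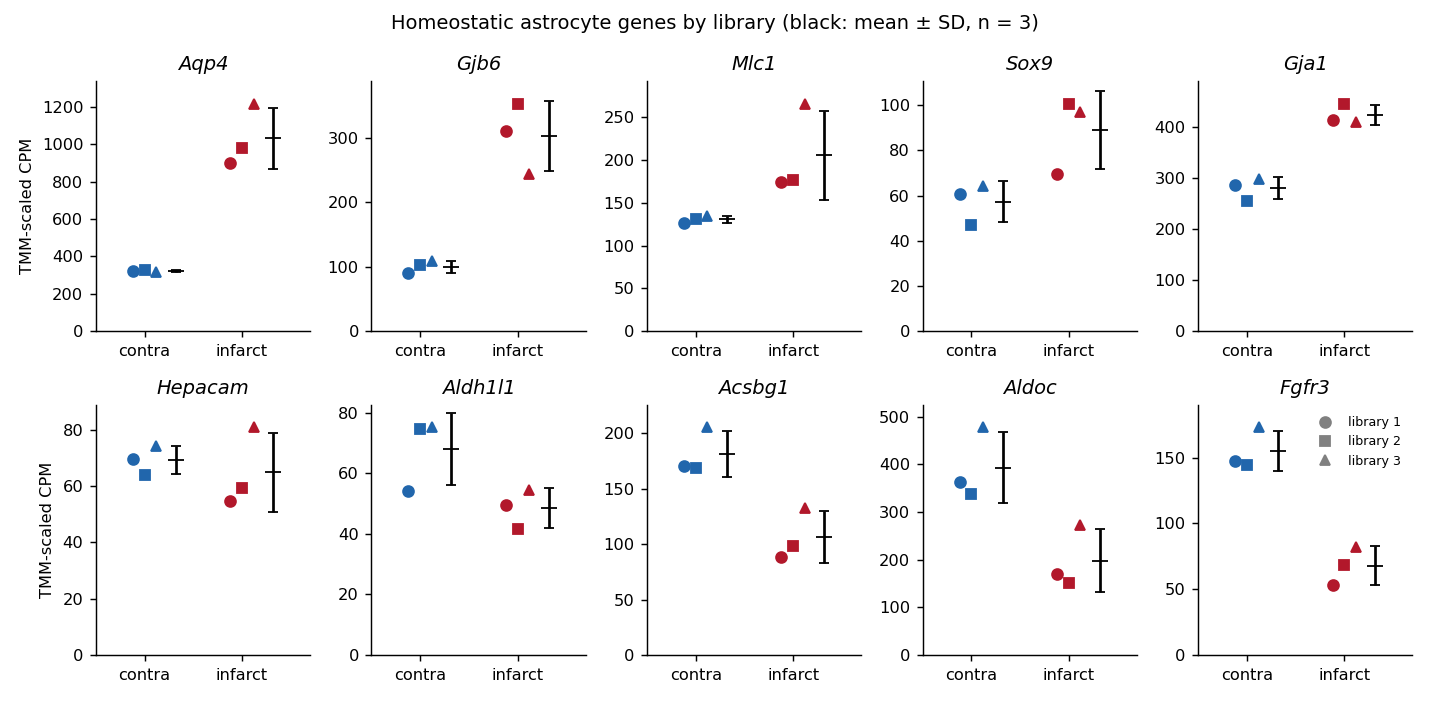
TMM-scaled CPM (y axis, linear, from 0) of each of the 10 markers in contralateral cortices (blue) and infarcts (red), 1 point per library with the marker shape giving the library number, and black bars giving the mean ± SD (n = 3). The upper row holds the 5 genes that rose, and the infarct points of *Aqp4* (899 to 1218 CPM) sit far above its contralateral points (319 to 327 CPM). In the lower row *Hepacam* and *Aldh1l1* overlap between regions, and *Acsbg1*, *Aldoc* and *Fgfr3* lie lower in every infarct.

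Promoter sequence is shown for *Gjb6* and *Fgfr3*, which rose most and fell most among the markers with a promoter window. The capitals mark CG dinucleotides, the letters run 5′ to 3′ on the strand of the gene, and the sequences are from RefSeq's GRCm38 tables, cut to the bases before the annotated gene start. The *Gjb6* stretch lies at chr14:57133612-57133861 on the minus strand, and the *Fgfr3* stretch at chr5:33721474-33721673 on the plus strand.
Gjb6: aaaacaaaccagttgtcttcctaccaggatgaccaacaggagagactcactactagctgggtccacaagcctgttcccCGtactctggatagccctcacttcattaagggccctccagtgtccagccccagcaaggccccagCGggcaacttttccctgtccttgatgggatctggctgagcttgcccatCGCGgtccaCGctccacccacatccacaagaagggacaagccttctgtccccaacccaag
Fgfr3: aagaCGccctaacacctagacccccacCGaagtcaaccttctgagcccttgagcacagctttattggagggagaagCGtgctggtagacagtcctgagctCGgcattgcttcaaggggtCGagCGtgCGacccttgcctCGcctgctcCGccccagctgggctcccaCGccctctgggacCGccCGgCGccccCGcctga

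A window of 250 bases before the gene start in RefSeq was available for 8 of the 10 markers and for 27025 genes in all. None was available for *Aqp4*, which rose more than *Gjb6*, or for *Sox9*. The *Fgfr3* window held 19 CG dinucleotides, but it ran past the annotated gene start, and 14 of them lie in the 200 bases shown. The *Gjb6* window held 5, beside a median of 6 over all windows with quartiles of 2 and 16. *Mlc1* had none and *Acsbg1* had 1, while *Aldh1l1* held 7, *Gja1* 6, *Aldoc* 5 and *Hepacam* 4. Short motifs were searched on both strands, none of which contains another. TTGGC, the core of the site bound by nuclear factor I proteins, was found in the windows of *Acsbg1*, *Hepacam*, *Aldoc* and *Mlc1*, that is in 4 of 8, and in 41.9% of all windows. AACAAT, a core bound by SOX proteins, was in none of the 8 and in 9.62% of all windows, and TATAAA was in none of the 8 and in 13% of all windows. These letters describe the windows and do not locate a bound site.

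*Aqp4* encodes the main water channel of astrocyte endfeet (ENSMUSG00000024411, chromosome 18, 15389496 to 15410982, GRCm38). Its level was 899, 979 and 1218 CPM in infarcts 1, 2 and 3, and 323, 327 and 319 CPM in contralateral cortices 1, 2 and 3. Every infarct was well above every contralateral cortex, and the contralateral values hardly varied. *Aqp4* rose 3.19-fold, with a log2 fold change of 1.68 ± 0.17 (SE) and an adjusted *p* of 2.06e-05 by edgeR. Without infarct 3, which had the highest *Aqp4* level, the log2 fold change was 1.55.

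*Mlc1* encodes a membrane protein of endfeet and astrocyte contacts whose loss causes a leukodystrophy with swollen white matter (ENSMUSG00000035805, chromosome 15, 88955884 to 88979007). It was at 174, 176 and 266 CPM in infarcts and at 126, 132 and 134 CPM in contralateral cortices. The regions did not overlap, but infarct 3 lay far above the other infarcts. *Mlc1* rose, with a log2 fold change of 0.65 ± 0.18 (SE, edgeR, adjusted *p* = 0.0105). Without infarct 3 the change was 0.44 with an adjusted *p* of 0.015 by edgeR.

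*Hepacam* encodes GlialCAM, the adhesion protein that brings MLC1 to cell contacts (ENSMUSG00000046240, chromosome 9, 37367351 to 37386575). It measured 54.6, 59.5 and 80.9 CPM in infarcts, against 69.8, 64.1 and 74.2 CPM in contralateral cortices. Infarcts 1 and 2 were below every contralateral cortex and infarct 3 was above all of them. The log2 fold change was −0.09, with a 95% interval of −0.48 to 0.29 and an adjusted *p* of 0.653 by edgeR, and it was 0.11 when scaled by library totals and −0.27 without infarct 3 (edgeR adjusted *p* = 0.152). This interval leaves room for a modest change either way.

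The gap junction genes of astrocytes are *Gja1*, which encodes connexin 43, and *Gjb6*, which encodes connexin 30. *Gja1* (ENSMUSG00000050953, chromosome 10, 56377330 to 56402513) was at 413, 446 and 411 CPM in infarcts and at 287, 256 and 299 CPM in contralateral cortices. Its infarct libraries were close to each other and all above the contralateral ones. *Gja1* rose 1.51-fold, with a log2 fold change of 0.59 ± 0.14 (SE, edgeR, adjusted *p* = 0.00485), or 0.63 without infarct 3. *Gjb6* (ENSMUSG00000040055, chromosome 14, 57123303 to 57133611) was at 311, 353 and 244 CPM in infarcts and at 90.2, 103 and 108 CPM in contralateral cortices. It was 1 of 2 markers that were lowest in infarct 3 among infarcts, and the regions were still wide apart. *Gjb6* rose 3.02-fold, with a log2 fold change of 1.59 ± 0.17 (SE, edgeR, adjusted *p* = 3.23e-05), or 1.74 without infarct 3.

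*Sox9* encodes the transcription factor that starts and maintains the astrocyte program (ENSMUSG00000000567, chromosome 11, 112782224 to 112787760). It was at 69.4, 101 and 97.1 CPM in infarcts and at 60.5, 46.9 and 64.3 CPM in contralateral cortices. The regions did not overlap, although infarct 1 was only just above contralateral cortex 3. *Sox9* rose 1.56-fold, with a log2 fold change of 0.64 ± 0.19 (SE, edgeR, adjusted *p* = 0.0131), or 0.59 without infarct 3. Without contralateral cortex 2, its lowest library, the change was 0.51 and the adjusted *p* by edgeR was 0.0635.

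*Fgfr3* encodes a fibroblast growth factor receptor that marks astrocytes and their precursors in the cortex (ENSMUSG00000054252, chromosome 5, 33721674 to 33737068). It was at 52.9, 68.7 and 82.2 CPM in infarcts and at 148, 145 and 173 CPM in contralateral cortices. All infarcts were far below all contralateral cortices, and infarct 3 was the highest of the infarcts. *Fgfr3* fell by 1.19 ± 0.18 (SE) on the log2 scale (edgeR, adjusted *p* = 0.000277), which is a level 2.28-fold higher in contralateral cortices. It fell by 0.98 with library totals and by 1.33 without infarct 3. An exon of a gene on the other strand covers 13.9% of its exon bases, and the strand setting of the counting is not given in the sources used here.

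The other markers that fell are enzymes. *Aldoc* encodes aldolase C, the brain form of a glycolytic enzyme (ENSMUSG00000017390, chromosome 11, 78322968 to 78327781). It was at 170, 151 and 273 CPM in infarcts and at 363, 337 and 477 CPM in contralateral cortices. Library 3 was the highest in both regions, and no infarct reached a contralateral level. *Aldoc* fell by 0.99 ± 0.24 on the log2 scale (SE, edgeR, adjusted *p* = 0.0053), just inside the 2-fold threshold. It passed that threshold without infarct 3 (−1.27), without contralateral cortex 1 (−1.05) and without contralateral cortex 2 (−1.09).

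*Acsbg1* encodes the bubblegum acyl-CoA synthetase, which activates long-chain fatty acids (ENSMUSG00000032281, chromosome 9, 54604877 to 54661870). It was at 88.0, 98.5 and 133 CPM in infarcts and at 171, 168 and 205 CPM in contralateral cortices. The infarcts again lay below all contralateral cortices, with infarct 3 nearest to them. *Acsbg1* fell by 0.77 ± 0.18 on the log2 scale (SE, edgeR, adjusted *p* = 0.00393), and the change was −0.94 without infarct 3.

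*Aldh1l1* encodes 10-formyltetrahydrofolate dehydrogenase, an enzyme of folate metabolism that is widely used to label astrocytes (ENSMUSG00000030088, chromosome 6, 90486427 to 90600203). It was at 49.5, 41.6 and 54.5 CPM in infarcts and at 54.2, 74.7 and 75.1 CPM in contralateral cortices. Infarct 3 and contralateral cortex 1 were nearly equal, so the regions overlapped. *Aldh1l1* fell by 0.49 ± 0.18 on the log2 scale (SE, edgeR, adjusted *p* = 0.035), and the change was −0.56 without infarct 3. This call was lost with DESeq2 (adjusted *p* = 0.0535) and with edgeR on library totals (−0.28, adjusted *p* = 0.175). It was also lost by edgeR without infarct 1 (adjusted *p* = 0.0541), infarct 2 (0.136), contralateral cortex 2 (0.115) or contralateral cortex 3 (0.116). Genes on the other strand cover 11.1% of its exon bases.

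**Figure D2:**
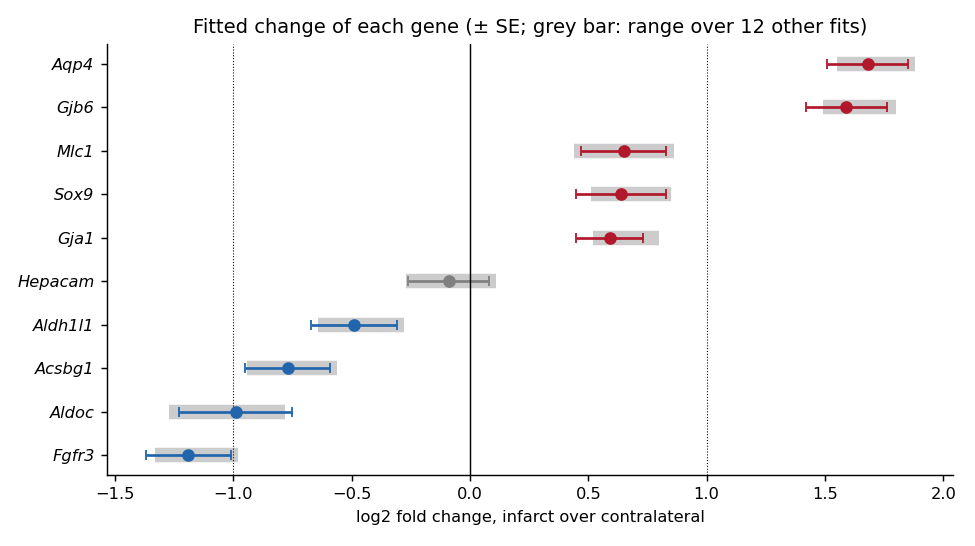
Log2 fold change of infarct over contralateral cortex (x axis) for the 10 markers from edgeR's quasi-likelihood fit on 3 libraries per region, with capped bars giving ± SE, grey bands the range over the other settings tried, and dotted lines the 2-fold thresholds. *Aqp4* (1.68) and *Gjb6* (1.59) lie apart to the right of 1 under every setting, *Fgfr3* (−1.19) lies to the left of −1 with a band that reaches −0.98, and the band of *Hepacam* crosses 0.

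Infarct 3 had the highest infarct level of 7 of the 10 markers, *Aqp4*, *Aldh1l1*, *Aldoc*, *Fgfr3*, *Acsbg1*, *Mlc1* and *Hepacam*. Contralateral cortex 3 had the highest contralateral level of 9 of the 10. Infarct 1 was the highest infarct for 0 markers and the lowest for 6. The neuronal and myelin markers were also highest in infarct 3, and macrophage, fibroblast and T, B and plasma cell markers were lowest there. The part of these cell types in the differences between infarcts was not tested. Without infarct 3, 9 markers differed, and 10297 of all genes were called, instead of 10111 with all libraries. In that fit 2 markers were upregulated over 2-fold and 2 were downregulated over 2-fold.

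Levels of different genes were compared per kilobase of merged exon. In contralateral cortices *Aldoc* had the highest level per length, 120 ± 22.8 CPM per kb (SD, n = 3), followed by *Aqp4* at 51.8 ± 0.572, *Acsbg1* at 50.4 ± 5.72 and *Mlc1* at 46.7 ± 1.40 CPM per kb. The libraries of *Aqp4* overlapped those of *Acsbg1*, and those of *Acsbg1* overlapped those of *Mlc1*, so the order of these neighbors is not separated. *Gjb6* stood at 37.5 ± 3.49, *Gja1* at 27.4 ± 2.17, *Fgfr3* at 21.7 ± 2.17, *Hepacam* at 20.7 ± 1.52, *Aldh1l1* at 15.1 ± 2.64 and *Sox9* at 13.8 ± 2.21 CPM per kb, with overlap between *Fgfr3* and *Hepacam* and between *Aldh1l1* and *Sox9*. In infarcts the order began with *Aqp4* at 166 ± 26.6 CPM per kb (SD, n = 3) and *Gjb6* at 113 ± 20.5, and *Aldoc* was the fourth at 60.6 ± 20.1, after *Mlc1* at 73.4 ± 18.7. The libraries of *Gjb6* and *Mlc1* overlapped, as did those of *Mlc1* and *Aldoc*. *Fgfr3* was last of the 10 in infarcts at 9.49 ± 2.05 CPM per kb, with libraries that overlapped those of *Aldh1l1* at 10.7 ± 1.44.

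Ratios of markers within a library do not depend on how libraries are scaled, and 6 pairs were compared. With 3 against 3 libraries the exact two-sided permutation test cannot give a *p* below 0.1, and its smallest adjusted value over the 6 pairs here was 0.15. The log2 ratio of *Gjb6* to *Gja1* counts was −0.41, −0.34 and −0.75 in infarcts and −1.67, −1.32 and −1.46 in contralateral cortices. The regions did not overlap, and the ratio differed by 0.98 (exact permutation *p* = 0.1). As a plain ratio of counts, not corrected for length, this is 0.707 in infarcts and 0.357 in contralateral cortices.

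The log2 ratio of *Mlc1* to *Hepacam*, whose proteins form a complex, was 1.68, 1.57 and 1.72 in infarcts and 0.86, 1.04 and 0.85 in contralateral cortices. These libraries separated cleanly, with a difference of 0.74 (exact permutation *p* = 0.1). The log2 ratio of *Aqp4* to *Mlc1* was 2.37, 2.47 and 2.20 in infarcts and 1.35, 1.31 and 1.25 in contralateral cortices, a difference of 1.04 (exact permutation *p* = 0.1). The plain count ratio was 5.08 in infarcts and 2.47 in contralateral cortices. The widest shift was between *Fgfr3* and *Sox9*, at −0.39, −0.55 and −0.24 in infarcts and 1.29, 1.62 and 1.43 in contralateral cortices. The ratio turned from above 0 in every contralateral cortex to below 0 in every infarct (difference −1.84, exact permutation *p* = 0.1).

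The other pairs overlapped between regions. The log2 ratio of *Aldoc* to *Aldoa*, the aldolase of muscle and many other tissues, was −1.38, −1.56 and −1.01 in infarcts and −1.08, −0.75 and −0.97 in contralateral cortices (difference −0.38, exact permutation *p* = 0.2). That of *Aldh1l1* to *Aldoc* was −1.78, −1.86 and −2.32 in infarcts and −2.74, −2.18 and −2.67 in contralateral cortices (difference 0.54, exact permutation *p* = 0.2). Infarct 3 lay among the contralateral cortices in both pairs.

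**Figure D3:**
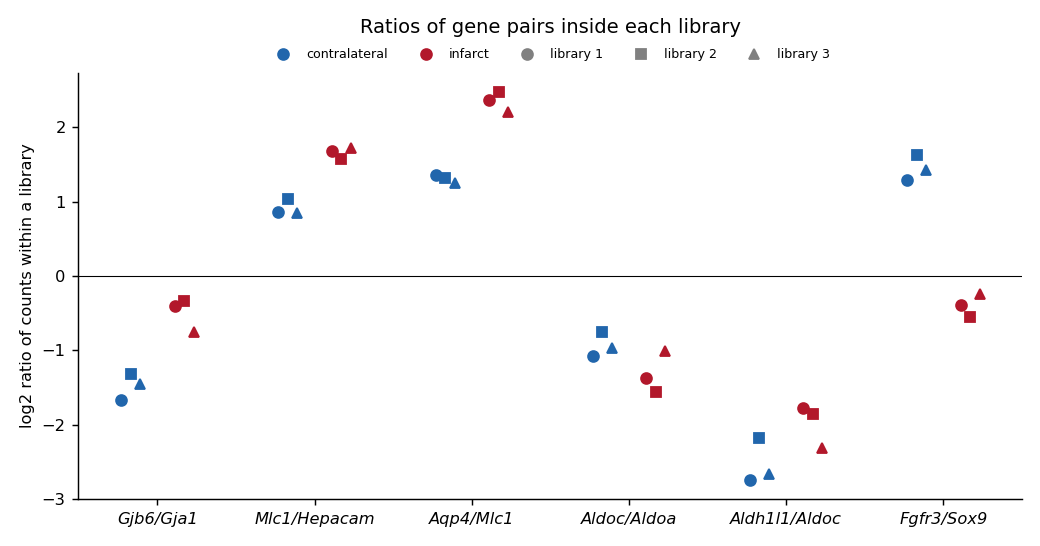
Log2 ratio of the counts of 2 genes within each library (y axis) for 6 pairs, with 1 point per library in contralateral cortices (blue) and infarcts (red). The regions are apart for *Gjb6*/*Gja1*, *Mlc1*/*Hepacam*, *Aqp4*/*Mlc1* and *Fgfr3*/*Sox9*, and they overlap for *Aldoc*/*Aldoa* and *Aldh1l1*/*Aldoc*.

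The relatives and partners of each marker were then counted. The aquaporin, connexin, fibroblast growth factor, Sox, aldolase, acyl-CoA synthetase and formyltetrahydrofolate lists hold the markers of their own family. Their counts therefore include marker calls already given above. Among 14 genes of the complex that anchors endfeet to the vascular basement membrane, 7 rose and 2 fell, with a median log2 fold change of 0.47. The laminin chain genes *Lamb2* (2.64), *Lamc1* (2.38) and *Lama2* (2.31) had the largest rises on the log2 scale. *Dtna*, which encodes dystrobrevin alpha, fell by 0.99 and *Dmd*, which encodes dystrophin, fell by 0.79. All 8 fibroblast and leptomeningeal markers rose in infarcts (median log2 fold change 5.01), from a summed 154 to 229 CPM in contralateral cortices to 4915 to 6111 CPM, and fibroblasts also make laminins. Their part in these rises, and in those of connexin genes, was not tested.

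Of 4 aquaporin genes with enough reads, 3 rose and 1 fell. *Aqp1*, a water channel of choroid plexus and of many endothelia outside the brain, was at 28.9 ± 5.58 CPM in infarcts, against 0.31 ± 0.0994 CPM in contralateral cortices (SD, n = 3), a log2 fold change of 6.51. *Aqp9* rose by 1.22, a call lost without infarct 2 (1.08, edgeR adjusted *p* = 0.0551), and *Aqp11* fell by 1.95 on the log2 scale.

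Of 12 connexin and pannexin genes tested, 6 rose and 2 fell, and with library totals 9 rose and 2 fell. *Gjb2*, which encodes connexin 26 and lies 18600 bases from *Gjb6* on chromosome 14, was at 75.4, 91.3 and 54.7 CPM in infarcts and at 4.34, 3.91 and 7.29 CPM in contralateral cortices. Every infarct was many times above every contralateral cortex, and infarct 3 was the lowest infarct, as it was for *Gjb6*. The log2 fold change of *Gjb2* was 3.85 ± 0.29 (SE, edgeR, adjusted *p* = 3.94e-06). Astrocytes and leptomeningeal cells both express *Gjb2* and *Gjb6*. Endothelial and mural connexin genes rose on the log2 scale by 1.52 (*Gja4*), 1.44 (*Gja5*) and 1.15 (*Gjc1*), and the neuronal connexin gene *Gjd2* and the neuronal *Panx2* fell by 3.75 and 2.93. *Gja5* lost its call without infarct 2 (1.12, edgeR adjusted *p* = 0.0983) or contralateral cortex 1 (1.28, adjusted *p* = 0.097) or 2 (1.19, adjusted *p* = 0.0996).

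Among 7 partners of MLC1 and HEPACAM, 3 rose and 2 fell, while 2 rose and 3 fell without infarct 3, and 4 rose and 1 fell with library totals. The calcium channel gene *Trpv4* rose by 2.42, *Cav1*, which encodes caveolin 1 and is strong in endothelium, rose by 1.57, and *Atp1b1*, a sodium pump subunit of neurons, fell by 2.12 on the log2 scale. The fibroblast growth factor group had 7 tested genes, of which 3 rose and 2 fell. Its median log2 fold change was 0.45, or 0.09 without infarct 3 and 0.66 with library totals. *Fgfr1* rose by 2.48, *Fgf2* by 1.99 and *Fgfr2* by 0.72 on the log2 scale while *Fgfr3* and the ligand gene *Fgf9* fell, the latter by 3.22. *Fgfr1* was at 258 ± 16.2 CPM in infarcts, against 46.4 ± 3.11 CPM in contralateral cortices (SD, n = 3), so these receptor genes of 1 family moved in opposite directions.

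Of the 5 Sox genes, 2 rose and 2 fell, while 1 rose and 3 fell without infarct 3, and 2 rose and 1 fell with library totals. Beside *Sox9*, the oligodendrocyte factor gene *Sox10* rose by 0.70, but not without infarct 3 (0.50, edgeR adjusted *p* = 0.0776), contralateral cortex 1 (0.64, 0.0796) or contralateral cortex 2 (0.69, 0.0614). *Sox5*, strong in deep-layer neurons, was at 19.4 ± 6.04 CPM in infarcts, against 88.8 ± 4.23 CPM in contralateral cortices (SD, n = 3) and fell.

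Both tested aldolases fell, *Aldoa* by 0.66, a call lost with library totals (−0.46, edgeR adjusted *p* = 0.0804), without infarct 2 (−0.59, 0.0668) and without contralateral cortex 3 (−0.48, 0.0839). Of 6 acyl-CoA synthetase genes tested, 0 rose and 4 fell, including *Acsl6* by 1.69 and *Acsl4* by 0.77 on the log2 scale, and with library totals 1 rose and 3 fell. Of 7 formyltetrahydrofolate enzyme genes, 2 rose and 1, the marker *Aldh1l1*, fell, and with library totals 2 rose and 0 fell. *Aldh1l2*, the mitochondrial relative of *Aldh1l1*, rose from 11.1 ± 2.07 to 23.8 ± 4.41 CPM (SD, n = 3), and *Mthfd2*, a mitochondrial folate enzyme of growing and immune cells, rose by 1.15 on the log2 scale. The summed level of 8 macrophage markers was 5073 to 8596 CPM in infarcts, against 41.3 to 52.1 CPM in contralateral cortices, and the part of immune cells in these rises was not tested.

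The 36 other homeostatic astrocyte genes were also split. Of these, 7 rose and 15 fell, beside 34.2% and 30.8% of all tested genes, with a median log2 fold change of −0.32. Without infarct 3, 7 of them rose and 18 fell. With library totals 8 of them rose and 13 fell, with a median of −0.12. Their summed level was 9680 to 12600 CPM in infarcts, against 21460 to 23230 CPM in contralateral cortices. *Slc1a2* carried most of this gap, and the other 35 genes summed to 7180 to 8678 CPM in infarcts, against 9350 to 10403 CPM in contralateral cortices. The lipid-binding adhesion gene *Mfge8* rose by 2.96, the phospholipase gene *Pla2g7* by 1.45 and the nucleotidase gene *Entpd2* by 1.44 on the log2 scale. The largest decreases on the log2 scale were in *Cyp4f15*, which fell by 2.84, and in the amino acid transporter gene *Slc7a10*, which fell by 2.79. *Mfge8* and *Pla2g7* are also made by macrophages.

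Some genes of textbook astrocyte functions were looked up after their values had been seen. *Slc1a2*, the main glutamate transporter gene, was at 2933 ± 859 CPM in infarcts, against 12297 ± 624 CPM in contralateral cortices (SD, n = 3), and it fell by 2.07 on the log2 scale (edgeR, adjusted *p* = 5e-05). The second glutamate transporter gene *Slc1a3* (−0.37, edgeR adjusted *p* = 0.0807), the glutamine synthetase gene *Glul* (−0.38, 0.0843) and the potassium channel gene *Kcnj10* (−0.27, 0.233) did not pass the test. Without infarct 3, *Slc1a3* (−0.48, edgeR adjusted *p* = 0.0183) and *Kcnj10* (−0.42, 0.0384) did pass, and *Glul* did without infarct 1 (−0.48, 0.04) and with limma voom on all libraries (−0.39, 0.0457).

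Of 14 transcription factor genes of astrocytes tested, 6 rose and 3 fell. Their median log2 fold change was 0.14, or 0.35 with library totals. Without infarct 3, where 15 genes of the list were tested, the median was −0.20. *Id3* rose by 2.97, *Zbtb20* by 1.72 and *Glis3* by 1.56 on the log2 scale. *Rorb* fell by 3.00 and *Lhx2* by 1.92, and both are also expressed by cortical neurons. All 20 genes of the reactive astrocyte list rose in infarcts, with a median log2 fold change of 4.83. The median was 4.59 when genes with no more than 3 counts in every contralateral library were set at their bound. Fibroblast markers (median 5.01) and macrophage markers (median 5.86) also rose, and the part of such cells in the rises of this list was not tested. *C3* and *Lcn2*, which had the largest log2 fold changes of the list, are also made by macrophages and neutrophils. *Gfap*, which was looked up for its name, was at 1080 ± 230 CPM in infarcts, against 38.6 ± 9.61 CPM in contralateral cortices (SD, n = 3), a log2 fold change of 4.81 (edgeR, adjusted *p* = 4.41e-07).

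**Figure D4:**
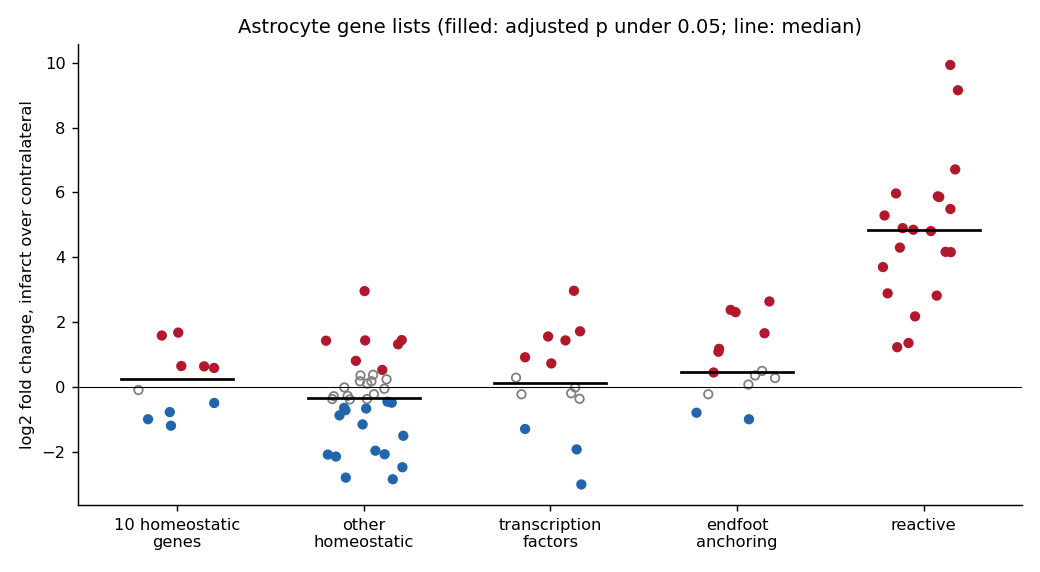
Log2 fold change of infarct over contralateral cortex (y axis) for each tested gene of the 10 markers and of 4 related gene lists, 1 point per gene, filled red or blue where the gene rose or fell at an adjusted *p* of 0.05 and open otherwise, with a line at the median of each list. The 10 markers (median 0.25) and the 36 other homeostatic genes (median −0.32) lie on both sides of 0, and the 20 reactive astrocyte genes (median 4.83) all lie above it.

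Markers of other cell types moved beside the astrocyte genes, and their part in the values above was not tested. All 8 pan-neuronal markers fell, with a median log2 fold change of −3.07, and 6 of 8 cortical excitatory neuron markers fell, with a median of −2.58. Without infarct 3 all 8 of the latter fell, with a median of −3.59, and the pan-neuronal median was −3.57. All 8 myelin markers rose, with a median of 1.06 and a summed level of 4436 to 7122 CPM in infarcts against 2247 to 2661 CPM in contralateral cortices. Of 7 oligodendrocyte precursor markers, 2 rose and 0 fell, and without infarct 3 there were 2 that rose and 3 that fell.

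Among immune lists, 6 of 8 microglia markers rose (median 1.69; 5 of 8 without infarct 3), 7 of 8 macrophage markers rose (median 5.86, or 5.29 with genes at their bound), and all 7 markers of T, B and plasma cells rose (median 8.88, or 6.84 with genes at their bound). The last list summed to 345 to 2390 CPM in infarcts and to 2.46 to 6.09 CPM in contralateral cortices. Endothelial markers were nearer to level, with 5 of 7 rising, 1 falling and a summed level of 354 to 456 CPM against 299 to 310 CPM.

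Ependymal and choroid plexus cells express *Aqp4*, *Sox9* or *Aqp1*, and the part of these cells in the rises of those genes was not tested. All 4 ependymal markers tested rose, and their list summed to 16.8 to 28.0 CPM in infarcts, against 1.95 to 4.89 CPM in contralateral cortices. Of 4 choroid plexus markers tested, 2 rose, and the list summed to 15.1 to 24.7 CPM in infarcts and to 7.05 to 7.66 CPM in contralateral cortices. *Ttr* and *Otx2*, also on this list, had no more than 3 counts in any library. The skeletal muscle list summed to 1.04 to 2.35 CPM in infarcts, against 9.31 to 11.8 CPM in contralateral cortices, with 1 gene tested, which fell.

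**Figure D5:**
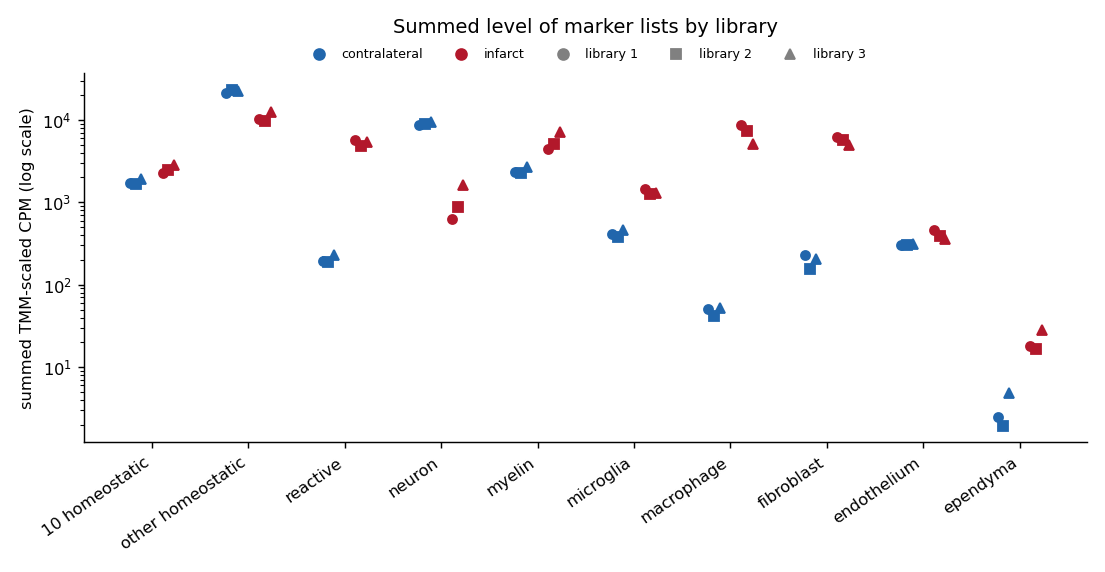
Summed TMM-scaled CPM (y axis, log scale) of the 10 markers and of other gene lists, 1 point per library in contralateral cortices (blue) and infarcts (red). Pan-neuronal markers (632 to 1608 CPM in infarcts) lie below their contralateral level (8767 to 9523 CPM), and macrophage and fibroblast lists lie far above theirs. The 10 markers together (2282 to 2859 CPM in infarcts) lie a little above their contralateral level (1653 to 1930 CPM). *Aqp4* alone gives 899 to 1218 CPM of the infarct sums and 319 to 327 CPM of the contralateral sums, and it carries most of this gap.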

How the data were processed

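The authors prepared poly(A)-selected stranded libraries and, per the labels, used bcl2fastq 2.19, Trimmomatic 0.32, STAR 2.5.2b, GRCm38 and HTSeq. The deposited values are raw read counts per gene, 1 table per library. The HTSeq version, its strand setting and the annotation are not given in the sources used here. Summary entries for reads on no single gene (26.6% to 34.3% of each table) were left out. Symbols, positions and exon lengths came from GENCODE M21, which held 45229 of the 46078 identifiers. Counts were filtered with filterByExpr, TMM-scaled and tested with edgeR 4.0.16 (robust quasi-likelihood, region as the only term, R 4.3.3) at an adjusted *p* of 0.05, with a 2-fold threshold where stated. Standard errors were derived from the log2 fold change and the *F* statistic of edgeR's test. The 95% intervals were built from them on edgeR's moderated degrees of freedom. The alternatives were DESeq2 1.42.0, limma 3.58.1, other scalings, no low-count filter, leaving out each library and a replicate block. The study also used DESeq2 and gives no version of it. The code was tested on simulated data. No libraries were duplicates.

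The members and gene lists were chosen with earlier results of these data known. All 10 members were to be named, with up to 3 risen and 3 fallen genes per other list, any tested relative in the family lists, and for each member the nearest profile. A gene of another list that the rule would name is not reported here. Genes outside this rule are identified as looked up after their values were seen. Depth limits precision to counting error of a few percent or less for every member, since each had at least 566 reads in every library.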

Additional observations from a re-analysis of the deposited data

How the results depend on the processing

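The number of markers that differed was 9 in the fit reported, 8 with DESeq2 and with library totals, 9 under the other full-sample settings, and 7 to 9 when each library was left out. Over all genes, 10111 were called in the fit reported, 10513 with DESeq2, 10105 with library totals, and 9266 to 10297 when each library was left out. The number upregulated over 2-fold was 2 throughout. The number downregulated over 2-fold was 1 as reported, 2 with limma voom, 2 with the replicate block, 0 with library totals, and 1 to 2 when each library was left out, the additional gene being *Aldoc* with values on either side of the 2-fold threshold. *Hepacam* changed direction with library totals (0.11) and without infarct 1 (0.04), and its values without each library ran from −0.27 to 0.04. Of the 60 leave-one-out values of the markers, 54 kept their direction and side of the threshold and 5 lost the call. Same-numbered infarcts and contralateral cortices did not deviate together (correlations of −0.19, 0.10 and 0.00 for numbers 1, 2 and 3), so the numbers were not taken as pairs. With that replicate block 9 markers differed and 9676 of all genes were called instead of 10111. Alternatives for 45 other named genes and for the lists were chosen after seeing the data. They turned no direction of these genes, and calls were lost in 9 leave-one-out values (*Aqp9*, *Aldoa*, *Gja5* and *Sox10*) and in 2 others, *Aldoa* with library totals and *Gja5* with the replicate block (1.41, edgeR adjusted *p* = 0.0605). Depth was not limiting for the markers, and 3 libraries per region limit the intervals.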

Other observations

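For each marker, the gene with the nearest profile was sought among 9675 genes with a mean of at least 10 CPM, by the Euclidean distance between centered log2 CPM over the 6 libraries. The nearest to *Aqp4* was the myelin gene *Mobp* (distance 0.20), and the nearest to *Gja1* was *Pacsin2* (0.06). For the other markers the nearest genes were *Zbtb7b* for *Gjb6* (0.16), *Tmem88b* for *Mlc1* (0.20), *Nab2* for *Sox9* (0.17), *Me1* for *Hepacam* (0.14), *Nmt1* for *Aldh1l1* (0.19), *Tmcc1* for *Acsbg1* (0.11), *Fkbp1a* for *Aldoc* (0.16) and *Ppp1r16a* for *Fgfr3* (0.14). With only 2 regions and 3 libraries in each, many genes can share a profile, and no other marker was the nearest gene of any marker.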
